A study of Mus musculus with 6 samples.

Results

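The genes of fatty acid and triglyceride synthesis were measured in the kidneys of Ptpn6+/mev mice and wild-type littermates after renal ischemia-reperfusion injury (IRI). The 10 genes, chosen by symbol, were Srebf1, Acly, Acaca, Fasn, Elovl6, Scd1, Scd2, Gpam, Dgat1 and Dgat2. All 10 were found among the 21367 genes of the deposited table, each with 1 Ensembl identifier, and all 10 passed the filter on low counts. The comparison asks whether the kidneys of mice with less SHP-1 activity differ from wild-type kidneys in the mRNA of this pathway at 24 h of reperfusion.

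Poly-A mRNA was sequenced from the left kidney of 3 Ptpn6+/mev mice and 3 wild-type mice, all on the C57BL/6J background and 7 weeks old. Ptpn6 encodes SHP-1, a protein tyrosine phosphatase that damps signalling from many receptors. The viable motheaten allele (mev) is a splice-site mutation of Ptpn6, carried here on a single chromosome in every cell of the mouse, and the genotype label calls these mice SHP-1 knockdown. Both groups lost the right kidney at surgery, had the vessels of the left kidney clamped during 34 min of ischemia and were killed after 24 h of reperfusion, so no library here comes from an uninjured kidney. Each library came from a single mouse, and total counts ranged from 10271590 to 12361745. Ptpn6 mRNA itself was 11.85, 14.66 and 13.61 FPKM in the Ptpn6+/mev libraries against 17.47, 10.87 and 15.44 in the wild-type libraries. The groups overlapped, and since the allele alters splicing the level of Ptpn6 mRNA does not check the genotype labels.

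Cells build fatty acids from citrate that leaves the mitochondria. Acly splits citrate to cytosolic acetyl-CoA, Acaca turns acetyl-CoA into malonyl-CoA, Fasn joins these units into palmitate, Elovl6 lengthens palmitate, and the Scd enzymes put a double bond into the saturated chain. Gpam starts triglyceride assembly by placing an acyl chain on glycerol-3-phosphate, and Dgat1 and Dgat2 add the last acyl chain to diacylglycerol. Srebf1 encodes SREBP-1, a transcription factor known for switching on the genes of this pathway. In the kidney, triglyceride is known to accumulate in the cortex after ischemic injury.

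Genomic positions are those of GENCODE M21 on GRCm38, on which each of the 10 genes is protein coding. Chromosome 11 holds Srebf1 (chr11:60199089-60222581, minus strand), Acaca (chr11:84129672-84401651, plus), Acly (chr11:100476353-100528000, minus) and Fasn (chr11:120805846-120824547, minus). Chromosome 19 holds Scd2 (chr19:44293674-44306864, plus), Scd1 (chr19:44394455-44407879, minus) and Gpam (chr19:55067268-55127238, minus), with 87590 bases between Scd2 and Scd1. Elovl6 lies at chr3:129532355-129638495 (plus), Dgat2 at chr7:99153658-99182719 (minus) and Dgat1 at chr15:76502015-76511953 (minus).

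The promoters of the first and the last enzyme of palmitate synthesis are shown because Srebf1, Acly and Fasn belong to a single regulatory pathway. The RefSeq windows on GRCm38.p6 gave a promoter for 6 of the 10 genes (Acaca, Acly, Elovl6, Fasn, Gpam and Srebf1), in 9 windows of 300 bases in all. Below are the 250 bases before the start site of Acly (chr11:100528001-100528250, minus strand) and of Fasn (chr11:120824548-120824797, minus strand), 5′ to 3′, with GC boxes in capitals for Acly and CCAAT boxes in capitals for Fasn.
Acly: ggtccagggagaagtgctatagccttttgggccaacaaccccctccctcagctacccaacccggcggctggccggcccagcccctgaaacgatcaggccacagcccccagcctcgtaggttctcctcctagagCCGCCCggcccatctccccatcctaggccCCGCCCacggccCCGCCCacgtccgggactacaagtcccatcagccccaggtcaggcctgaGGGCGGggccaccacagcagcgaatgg
Fasn: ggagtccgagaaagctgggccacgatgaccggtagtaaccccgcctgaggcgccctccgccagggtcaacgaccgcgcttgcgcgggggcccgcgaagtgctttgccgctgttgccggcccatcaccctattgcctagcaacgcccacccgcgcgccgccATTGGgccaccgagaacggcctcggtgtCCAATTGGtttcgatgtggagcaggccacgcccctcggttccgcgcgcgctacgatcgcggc
The Fasn window held 3 matches to CCAAT on either strand, which began 90, 62 and 59 bases before the start, the last pair overlapping by 2 bases on opposite strands. The Acly window held 4 matches to the GC box GGGCGG on either strand, at 117, 88, 76 and 27 bases before the start. Searched on both strands, CCAAT occurred in a window of 4 of the 6 genes and of 41.1% of all 27025 symbols with a window, and GGGCGG in a window of 3 of the 6 genes and of 38.2% of all symbols. The core of the sterol regulatory element, TCACNCCAC, matched no window of the 6 genes and a window of 1.44% of all symbols, and the E-box CACGTG matched none and 8.09%. Per window, over all 32851 windows of this length, the shares were 37.4% for CCAAT, 35.7% for GGGCGG, 1.24% for TCACNCCAC and 7.15% for CACGTG. No match says only that these letters are not in the 300 bases searched.

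Scd1 and Scd2 encode close copies of the same desaturase, so their sequences were compared before their values. Their coding sequences had 1065 and 1074 bases and were identical at 962 of 1065 aligned positions (90.3%). The longest identical stretch had 147 bases. It is shown within 200 bases of the coding sequence (bases 497 to 696 of Scd1 and 506 to 705 of Scd2, 5′ to 3′), with the positions that differ in capitals.
Scd1: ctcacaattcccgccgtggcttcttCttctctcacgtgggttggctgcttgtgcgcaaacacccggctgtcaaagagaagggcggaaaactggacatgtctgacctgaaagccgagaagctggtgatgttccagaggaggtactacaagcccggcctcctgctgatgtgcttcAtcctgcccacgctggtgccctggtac
Scd2: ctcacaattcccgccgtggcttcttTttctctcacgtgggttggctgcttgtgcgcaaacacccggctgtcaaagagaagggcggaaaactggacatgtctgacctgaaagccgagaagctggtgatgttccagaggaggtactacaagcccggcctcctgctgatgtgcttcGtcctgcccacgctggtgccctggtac
Counts of the pair were fractional in a single library, wild-type 3, with 562.34 for Scd1 and 1238.66 for Scd2, which add up to a whole number, and whole in the other 5. Fractional counts can arise where a read pair is shared between genes.

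None of the 10 genes passed the test between Ptpn6+/mev and wild-type kidneys at a false discovery rate (FDR) of 0.05. Over all 13036 genes tested, 18 passed, which is 0.138% of them, so a count of 0 of 10 lies near the background. At an unadjusted p under 0.05, 1 of the 10 genes, Dgat2, stood below, where 12.2% of all tested genes stood. Dgat2, the acyltransferase of the last step of triglyceride assembly, was also the only one whose FPKM values did not overlap between the groups. All its Ptpn6+/mev values were below all its wild-type values, as for 6.38% of tested genes in that direction, and 20.4% of tested genes were apart in either direction. With CPM (counts scaled to library size with TMM factors, the normalisation of the test) in place of FPKM (fragments scaled to transcript length and library size) it was again Dgat2 alone, and 19.4% of tested genes were apart. The median log2 fold change of the 10 genes was -0.18, against 0.00 over all tested genes. Of the 10 fold changes 7 were below 0, as were 50.5% of those of all tested genes.

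**Figure D1:**
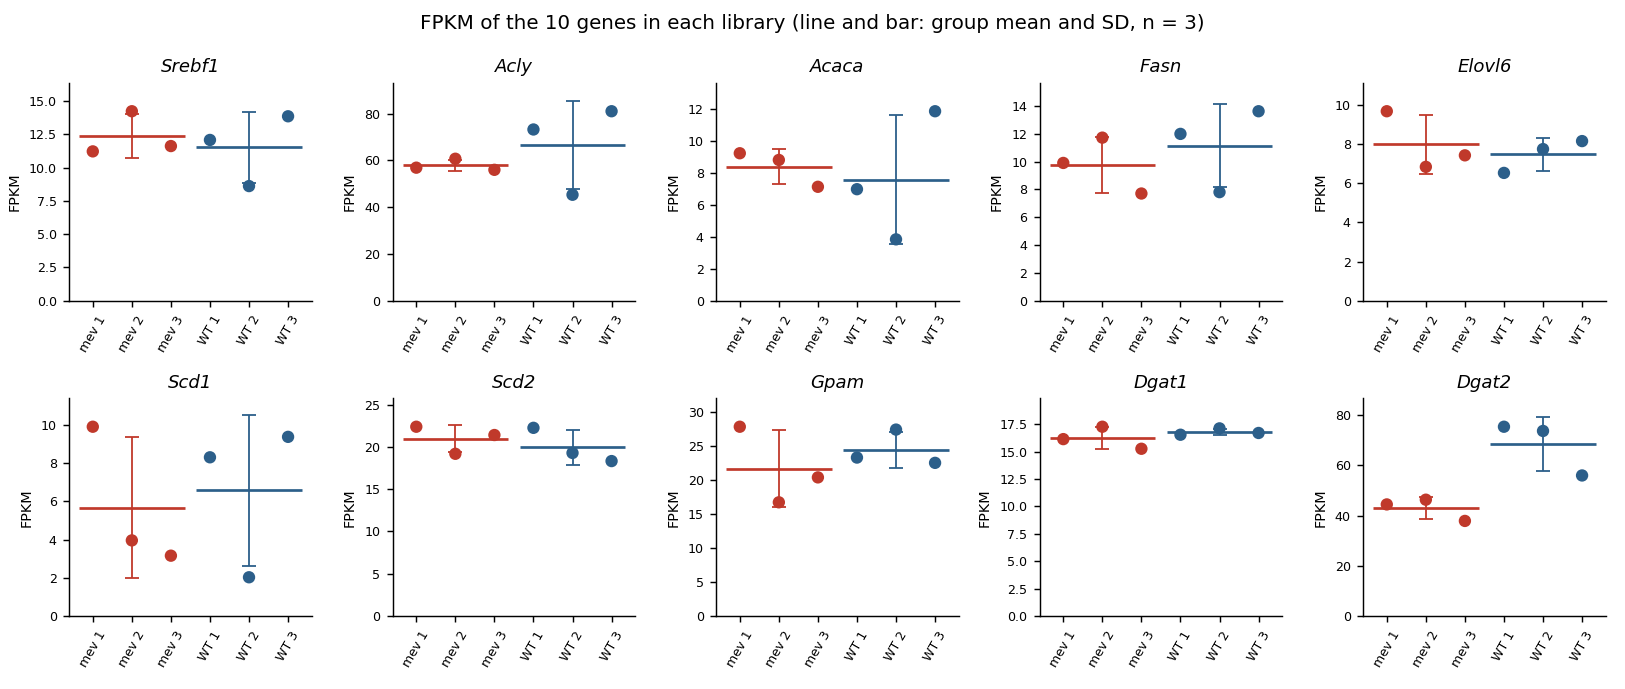
FPKM of each of the 10 genes (vertical axes, from 0) in the 3 Ptpn6+/mev libraries (red) and the 3 wild-type libraries (blue), with the group mean as a line and the SD as a bar. The groups overlap in every panel except Dgat2, where the Ptpn6+/mev libraries lie between 37.87 and 46.32 FPKM and the wild-type libraries between 55.97 and 75.37.

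FPKM, which is scaled to transcript length, allows the levels of the genes to be ordered, with the limit that the length behind the values of Acaca and Elovl6 varied between libraries (2.04-fold and 1.38-fold, described with Acaca). Acly had the highest mean level over the 6 libraries (62.2 FPKM), followed by Dgat2 (55.6), Gpam (23.1), Scd2 (20.5), Dgat1 (16.5), Srebf1 (11.9), Fasn (10.5), Acaca (7.97), Elovl6 (7.74) and Scd1 (6.13). The ranges of Acly and Dgat2 were apart in the Ptpn6+/mev group only. Acly was above Dgat2 in all 3 Ptpn6+/mev libraries, with ranges apart (55.93 to 60.67 against 37.87 to 46.32 FPKM), whereas in wild-type mice the means were 66.5 ± 18.8 FPKM for Acly and 68.3 ± 10.8 FPKM for Dgat2 (SD, n = 3) and the ranges overlapped. Whether the order depends on genotype was not tested. Gpam exceeded Scd2 in 4 of 6 libraries and was not separated from it by the spread between libraries. Dgat2 was above Gpam, Scd2 above Dgat1 and Dgat1 above Srebf1 in every library, with ranges that did not touch. Srebf1 exceeded Fasn and Fasn exceeded Acaca in 6 of 6 libraries, although their ranges overlapped. Acaca, Elovl6 and Scd1 were not separated, each exceeding the next in 3 of 6 libraries.

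Srebf1 mRNA was 11.22, 14.24 and 11.62 FPKM in the Ptpn6+/mev libraries and 12.08, 8.61 and 13.86 in the wild-type libraries. The lowest value and the second highest both came from wild-type mice. The log2 fold change was 0.07 (SE 0.14, adjusted p = 0.905, edgeR quasi-likelihood test with Benjamini-Hochberg adjustment, as for all adjusted p-values that follow), and the 95% interval of the fold ran from 0.835 to 1.32. Without wild-type replicate 2 the log2 fold change was -0.059, and without Ptpn6+/mev replicate 2 it was -0.028.

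Acly, the ATP citrate lyase that supplies acetyl-CoA, was the most even of the 10 genes among Ptpn6+/mev mice and uneven among wild-type mice. Its FPKM values were 56.85, 60.67 and 55.93 in the Ptpn6+/mev libraries and 73.19, 45.26 and 81.00 in the wild-type libraries. Wild-type replicate 2 was below all Ptpn6+/mev libraries, and wild-type replicates 1 and 3 were above all of them. The coefficient of variation was 4.35% in Ptpn6+/mev mice and 28.3% in wild-type mice (n = 3 each). The log2 fold change was -0.26 (SE 0.17, adjusted p = 0.619). Without wild-type replicate 2 it was -0.45 with an adjusted p of 0.0312, in a fit in which 1.8% of all tested genes passed, and without wild-type replicate 3 it was -0.12 with an adjusted p of 0.809.

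Acaca, the cytosolic acetyl-CoA carboxylase, gave 9.22, 8.80 and 7.12 FPKM in the Ptpn6+/mev libraries and 6.97, 3.83 and 11.85 in the wild-type libraries. Its estimated counts were 417, 519 and 394 against 480, 361 and 618. Wild-type replicate 2 was the lowest and wild-type replicate 3 the highest of the 6 on both scales. The means were 8.38 ± 1.11 FPKM in Ptpn6+/mev mice and 7.55 ± 4.04 FPKM in wild-type mice (SD, n = 3). On counts the log2 fold change was -0.06 (SE 0.16, adjusted p = 0.923), whereas on log2(FPKM + 1) limma gave 0.24 and on log2(FPKM + 0.1) it gave 0.28. The direction for Acaca therefore differed between these fits, which changed the unit, the scaling and the model together. On counts scaled by library size only, its log2 fold change was -0.0017.

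Counts and FPKM differ, among other things, in the transcript length that an FPKM value is divided by. The length that the count and the FPKM of a library together imply was calculated for each gene. For Acaca it was 4403, 5693 and 5143 bases in the Ptpn6+/mev libraries and 6383, 8585 and 4219 bases in the wild-type libraries, a 2.04-fold range. For Elovl6 the implied length ranged from 4030 to 5551 bases (1.38-fold), and for Srebf1 from 3981 to 4311 bases (1.08-fold). For the other 7 genes the longest implied length exceeded the shortest by at most 1.03-fold. FPKM values of Acaca and Elovl6 thus carry a length that varied between libraries of the same group.

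**Figure D2:**
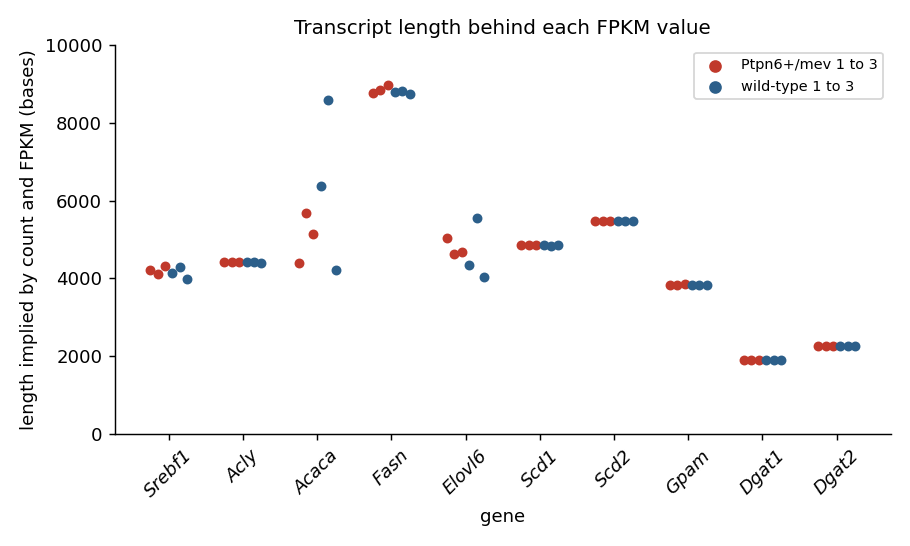
Transcript length in bases (vertical axis, from 0) implied by the estimated count and the FPKM of each gene, with 1 point per library, Ptpn6+/mev in red and wild-type in blue. Points of a gene coincide for most genes, while those of Acaca spread from 4219 to 8585 bases and those of Elovl6 from 4030 to 5551 bases.

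Fasn, the fatty acid synthase, gave 9.90, 11.72 and 7.70 FPKM in the Ptpn6+/mev libraries and 11.99, 7.80 and 13.62 in the wild-type libraries. The groups overlapped, with means of 9.77 ± 2.01 and 11.1 ± 3.00 FPKM (SD, n = 3). This gave a log2 fold change of -0.24 (SE 0.20, adjusted p = 0.709), and the 95% interval of the fold, 0.616 to 1.17, included 1. Within each library Acly was 5.18 to 7.26 times the level of Fasn, with means of 6.06 ± 1.08 in Ptpn6+/mev mice and 5.95 ± 0.151 in wild-type mice (SD, n = 3).

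Elovl6, the elongase that lengthens palmitate, gave 9.70, 6.85 and 7.44 FPKM in the Ptpn6+/mev libraries and 6.54, 7.76 and 8.17 in the wild-type libraries. The highest value came from Ptpn6+/mev replicate 1 and the lowest from wild-type replicate 1. Fitted on counts, its log2 fold change was 0.07 (SE 0.22, adjusted p = 0.943). It was -0.14 without Ptpn6+/mev replicate 1 and -0.077 without wild-type replicate 1.

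Scd2 was among the steadiest of the genes and did not separate the groups. Its FPKM values were 22.38, 19.18 and 21.40 in the Ptpn6+/mev libraries and 22.25, 19.28 and 18.32 in the wild-type libraries. The log2 fold change was 0.00 (SE 0.11, adjusted p = 0.995), and the 95% interval of the fold ran from 0.844 to 1.19, so a difference as large as that of Dgat2 lay outside it.

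Scd1, by contrast, had the widest spread of the 10 genes, with a 4.88-fold range over the 6 libraries. Its FPKM values were 9.91, 3.96 and 3.16 in the Ptpn6+/mev libraries and 8.31, 2.03 and 9.38 in the wild-type libraries. Ptpn6+/mev replicate 1 and wild-type replicates 1 and 3 were high, and Ptpn6+/mev replicates 2 and 3 and wild-type replicate 2 were low, so that high and low libraries occurred in both groups. The log2 fold change was -0.26 with an SE of 0.57 (adjusted p = 0.911), and the 95% interval of the fold, 0.338 to 2.06, left room for a doubling in either direction. The ratio of Scd2 to Scd1, chosen for description after the values were seen, was 2.26, 4.84 and 6.77 in the Ptpn6+/mev libraries and 2.68, 9.50 and 1.95 in the wild-type libraries.

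Genes of white adipocytes, in which Scd1 is abundant, were high in the same 3 libraries. Adipoq, which encodes the fat-cell hormone adiponectin, was 5.19, 0.00 and 0.00 FPKM in the Ptpn6+/mev libraries and 4.36, 0.07 and 7.30 in the wild-type libraries. Cfd, encoding adipsin, was 50.98, 0.00 and 0.32 against 71.64, 1.11 and 57.03. Plin1, the coat protein of fat-cell lipid droplets, was 2.62, 0.00 and 0.00 against 3.21, 0.14 and 2.30, and Retn, encoding resistin, was 3.44, 0.00 and 0.00 against 4.97, 0.00 and 4.06. Lep, encoding leptin, stayed at or below 0.71 FPKM in every library. Cidec departed from this pattern, with 9.39, 1.07 and 0.54 against 10.77, 10.38 and 7.98. Fabp4, the most abundant of the list and also made by endothelium, was 175.85, 84.18 and 104.81 against 165.74, 46.00 and 137.07. Of the 6 of 7 white adipocyte genes that were tested, 0 passed, and the list summed to 85.6 to 248 FPKM in Ptpn6+/mev libraries and 57.7 to 261 FPKM in wild-type libraries. Ucp1, Cidea (the most abundant of the 3) and Elovl3, markers of brown adipocytes, summed to at most 0.31 FPKM in a Ptpn6+/mev library and 0.32 FPKM in a wild-type library. In whole kidney, fewer cells of a type and less RNA per cell cannot be told apart.

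Of the 10 genes, Scd1 alone was higher in each of the 3 libraries with Adipoq above 1 FPKM (8.31 to 9.91 FPKM) than in each of the other 3 (2.03 to 3.96 FPKM), as were 4.75% of all tested genes. Within the 3 libraries with Adipoq, Scd1 was 9.91 FPKM in the Ptpn6+/mev library and 8.31 and 9.38 in the wild-type libraries. Within the other 3 it was 3.96 and 3.16 FPKM in the Ptpn6+/mev libraries and 2.03 in the wild-type library. Since the division coincides with that of the Scd1 values themselves, a fit with it as a term says nothing about Scd1. For Dgat2 such a fit, an alternative chosen after the data were seen, gave a log2 fold change of -0.77 (adjusted p = 0.084).

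**Figure D3:**
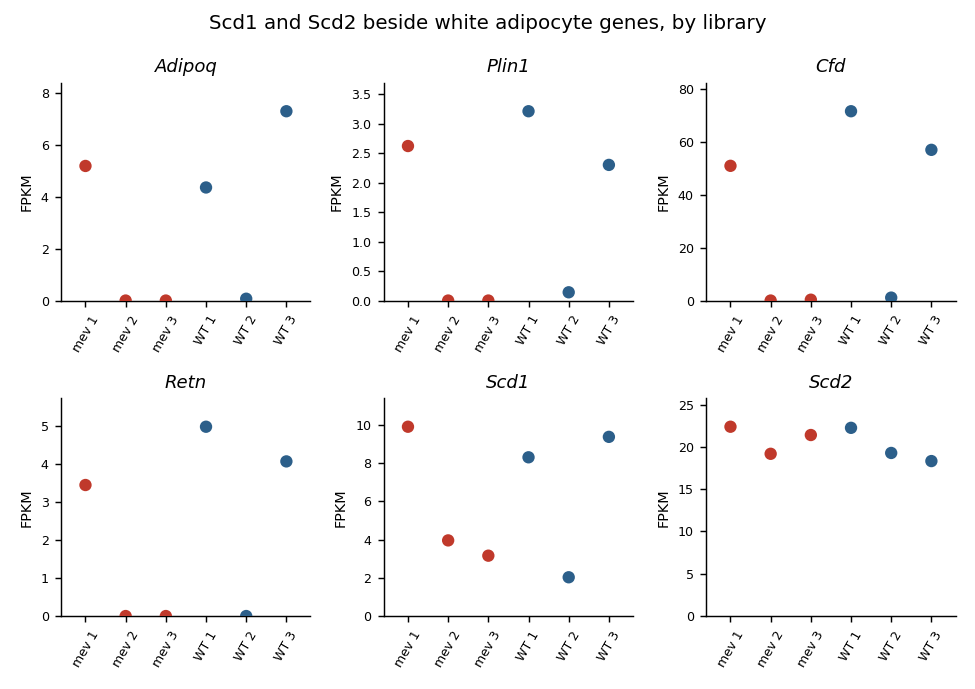
FPKM (vertical axes, from 0) of 4 white adipocyte genes and of Scd1 and Scd2 in each Ptpn6+/mev (red) and wild-type (blue) library. Adipoq, Plin1, Cfd, Retn and Scd1 are high in Ptpn6+/mev replicate 1 and wild-type replicates 1 and 3, while Scd2 stays between 18.32 and 22.38 FPKM in all 6 libraries.

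Gpam, the mitochondrial glycerol-3-phosphate acyltransferase, gave 27.88, 16.75 and 20.42 FPKM in the Ptpn6+/mev libraries and 23.34, 27.46 and 22.56 in the wild-type libraries. The Ptpn6+/mev libraries held both the highest and the lowest value. Between the groups the log2 fold change was -0.25 (SE 0.19, adjusted p = 0.674), and the 95% interval of the fold ran from 0.62 to 1.14.

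Dgat1, an acyltransferase unrelated in sequence to Dgat2 that catalyses the same last step, was nearly constant. It gave 16.14, 17.27 and 15.26 FPKM in the Ptpn6+/mev libraries and 16.54, 17.12 and 16.70 in the wild-type libraries. The spread over all 6 was 1.13-fold, and the log2 fold change was -0.12 (SE 0.11, adjusted p = 0.726, 95% interval of the fold 0.774 to 1.09).

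Dgat2 gave 44.44, 46.32 and 37.87 FPKM in the Ptpn6+/mev libraries and 75.37, 73.69 and 55.97 in the wild-type libraries, with estimated counts of 1036, 1089 and 925 against 1845, 1836 and 1570. The highest Ptpn6+/mev value lay below the lowest wild-type value. The means were 42.9 ± 4.44 and 68.3 ± 10.8 FPKM (SD, n = 3). The log2 fold change was -0.75 (SE 0.15, unadjusted p = 0.00111, adjusted p = 0.104), a fold of 0.596 with a 95% interval of 0.469 to 0.758, which did not pass after adjustment over all genes. It passed under edgeR's exact test (adjusted p = 0.00195), which called 2.99% of all tested genes, and under the DESeq2 Wald test (0.00129), which called 2.97%. It also passed without wild-type replicate 2 (0.0462) and without wild-type replicate 3 (0.0319), where 1.8% and 0.508% of genes passed. With another library left out the adjusted p lay between 0.211 and 0.464, and over all 17 alternatives it lay between 0.00129 and 0.464, with log2 fold changes from -0.89 to -0.65. The ratio of Dgat2 to Dgat1, described after both values were seen, was 2.75, 2.68 and 2.48 in the Ptpn6+/mev libraries and 4.56, 4.30 and 3.35 in the wild-type libraries.

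**Figure D4:**
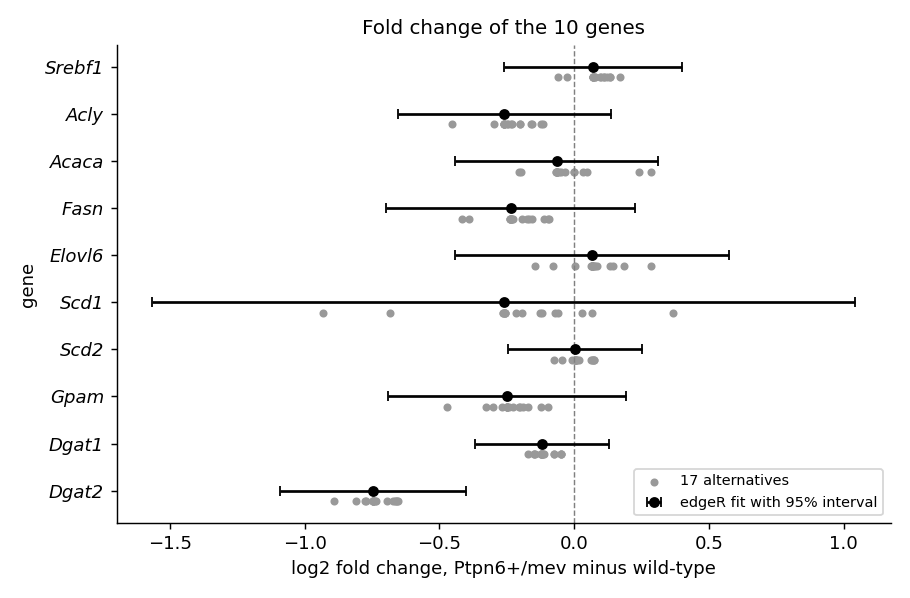
Log2 fold change of each of the 10 genes (horizontal axis, Ptpn6+/mev minus wild-type) with its 95% interval from the edgeR fit in black, and the values of the 17 alternatives as grey points. The interval of Dgat2, around -0.75, lies below 0 and those of the other 9 genes include 0, the widest being that of Scd1.

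Markers of the proximal tubule were measured beside Dgat2, and some but not all of them were lower in every Ptpn6+/mev library. Slc22a6, the organic anion transporter of proximal tubule cells, was 71.38, 99.00 and 70.35 FPKM in the Ptpn6+/mev libraries and 180.04, 182.51 and 130.42 in the wild-type libraries. Slc13a3, a dicarboxylate transporter, was 37.14, 59.55 and 44.41 against 131.58, 110.42 and 74.62, and Cubn, which encodes the endocytic receptor cubilin, was 5.20, 8.33 and 5.01 against 11.28, 9.46 and 11.02. The groups of these 3 of the 8 markers did not overlap, as for 6.38% of all tested genes in that direction, and none of the 8 proximal tubule markers passed the test (lowest adjusted p = 0.0774). The other 5 overlapped between the groups, with log2 fold changes of -0.44 for Lrp2 (encoding the endocytic receptor megalin), -0.44 for the water channel Aqp1, -0.34 for Slc34a1, -0.037 for the glucose transporter Slc5a2 and 0.0096 for Slc5a12. At an unadjusted p under 0.05, 4 of the 8 were lower, as were 6.71% of all tested genes, and the median log2 fold change of the 8 was -0.44. Slc34a1, the phosphate transporter and most abundant of the list, was 198.32, 256.19 and 192.76 FPKM against 305.23, 175.57 and 312.71. With a library left out, the lowest adjusted p was 0.0274 for Slc22a6, 0.0319 for Slc13a3, 0.03335 for Cubn and 0.0354 for Lrp2. The highest were 0.394, 0.451, 0.506 and 0.712 in that order, and Slc34a1, Aqp1, Slc5a2 and Slc5a12 passed in no such fit. The 8 markers summed to 491 to 624 FPKM in Ptpn6+/mev libraries and 707 to 856 FPKM in wild-type libraries, with no marker at 0. Of 6 markers of injured tubule, 0 passed and Vcam1, Krt18 and Havcr1 were higher in all Ptpn6+/mev libraries, as were 14% of all tested genes. The 6 summed to 3066 to 4159 FPKM against 2497 to 3769 FPKM, and their median log2 fold change was 0.21. Lcn2, the most abundant, overlapped between the groups (1183.47, 1129.74 and 2268.9 FPKM against 1510.58, 2079.51 and 961.53). Its log2 fold change was -0.077, and -0.47 to 0.26 with a library left out. In those fits the lowest adjusted p was 0.0376 for Krt18, 0.0874 for Havcr1 and 0.108 for Vcam1. The highest were 0.586, 0.623 and 0.561 in that order. The part of these markers in the Dgat2 values was not tested.

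Wild-type replicate 2 was the lowest of the 6 libraries for Srebf1, Acaca, Acly and Scd1, that is for 4 of the 10 genes, as for 42.8% of all tested genes. Summed markers of endothelium were 44.6 FPKM in that library against 103 to 111 FPKM in the other 5, those of fibroblasts 35.1 against 86.1 to 155, and those of macrophages 70.7 against 105 to 210. Collecting duct markers summed to 546 FPKM against 192 to 305. The most abundant gene of these lists was Pecam1, Col3a1, Lyz2 and Aqp2 in that order. None of the markers of these cell types, nor of distal tubule (Umod the most abundant), neutrophils (S100a9) or hepatocytes (Ttr), passed the test. Slc12a3, Scnn1g and Alb were lower in all Ptpn6+/mev libraries than in all wild-type libraries, as were 6.38% of all tested genes. These were 1 of 3 tested distal tubule markers, 1 of 4 collecting duct markers and 1 of 3 hepatocyte markers. Umod and Aqp2 overlapped between the groups, as did Ttr, whose log2 fold change was 0.31.

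Around the 10 genes, 66 further genes of the pathway were listed by function, of which 65 were in the table and 59 were tested. None passed, 2 were higher and 11 lower in Ptpn6+/mev kidneys at an unadjusted p under 0.05, and 6 were higher and 11 lower with no overlap in FPKM. Over all tested genes 5.53% were higher and 6.71% lower at an unadjusted p under 0.05, and 14% were higher and 6.38% lower with no overlap. The median log2 fold change of the 59 was -0.15.

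Among the 15 regulators, 0 passed and the median log2 fold change was -0.03. In FPKM 3 of them were higher and 0 lower with no overlap, against 14% and 6.38% of all tested genes. Srebf2, the paralog of Srebf1 known for cholesterol synthesis, was 27.07, 32.53 and 29.05 FPKM in the Ptpn6+/mev libraries and 32.12, 28.64 and 34.53 in the wild-type libraries (log2 fold change -0.17, SE 0.10, adjusted p = 0.554). Mlxipl, which encodes the glucose-sensing factor ChREBP, was 29.44, 19.61 and 15.85 against 26.83, 21.54 and 33.53 (log2 fold change -0.21, SE 0.16, adjusted p = 0.669), and its log2 fold change was -0.41 without Ptpn6+/mev replicate 1 and -0.11 without Ptpn6+/mev replicate 3. Thrsp, a lipogenic cofactor, was 5.85, 3.09 and 3.70 FPKM against 2.53, 1.28 and 2.84, without overlap but with an adjusted p of 0.376. Usf2 (46.18 to 47.54 against 37.90 to 41.67 FPKM) and Nr1h2, the liver X receptor beta and the most abundant regulator (71.89 to 76.43 against 61.52 to 69.68 FPKM), were also apart in FPKM, with log2 fold changes on counts of 0.11 and 0.03, and the CPM values of Nr1h2 overlapped. Ppara, the receptor that drives fatty acid oxidation, was 15.73, 12.34 and 16.14 FPKM against 22.23, 28.94 and 21.79 (log2 fold change -0.81, SE 0.17, adjusted p = 0.104). Its adjusted p lay between 0.0403 and 0.417 with a library left out.

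Of the 7 genes that supply acetyl-CoA and NADPH, 0 passed, 4 were lower at an unadjusted p under 0.05 (6.71% of all tested genes were) and the median log2 fold change was -0.29. Acss2, which makes acetyl-CoA from acetate and so bypasses Acly, was 19.52, 22.02 and 17.04 FPKM in the Ptpn6+/mev libraries and 28.09, 28.22 and 25.78 in the wild-type libraries (log2 fold change -0.58, SE 0.12, adjusted p = 0.104). The groups did not overlap, unlike those of Acly. In FPKM 3 of the 7 genes were lower with no overlap, against 6.38% of all tested genes. Acss2 passed in 2 of 17 alternatives. These were edgeR's exact test (adjusted p = 0.00568), which called 2.99% of all tested genes, and the DESeq2 Wald test (0.00468), which called 2.97%. With a library left out its adjusted p lay between 0.0512 and 0.464. Slc25a1, the carrier that exports citrate from mitochondria, was 87.37 to 96.78 FPKM against 105.68 to 107.34, and Me1, the malic enzyme that makes NADPH, was 50.41 to 55.80 against 58.35 to 60.55 (log2 fold changes -0.29 and -0.25, adjusted p = 0.233 and 0.306). Idh1, the most abundant of this list, was 295.51, 264.85 and 250.02 FPKM against 289.12, 446.62 and 296.72, which overlapped, whereas its CPM values were lower in all Ptpn6+/mev libraries (log2 fold change -0.44, adjusted p = 0.416). Leaving out a library moved the log2 fold change of Idh1 to between -0.57 and -0.17.

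Of 22 genes of elongation, desaturation and activation, 17 were tested and 0 passed, with a median log2 fold change of -0.11. Hacd1, a dehydratase of the elongation cycle, was 45.65, 41.14 and 36.54 FPKM against 27.47, 28.98 and 29.92 (log2 fold change 0.44, SE 0.12, adjusted p = 0.196). Tecr, the reductase of the same cycle, was 73.74 to 88.70 FPKM against 92.61 to 99.63 (log2 fold change -0.30, adjusted p = 0.286). Elovl1 was the most abundant of the list (91.43 to 112.58 FPKM) with a log2 fold change of 0.00. Acacb, the mitochondrial counterpart of Acaca known for restraining fatty acid oxidation, was 3.23, 2.20 and 3.42 FPKM against 4.18, 3.62 and 2.99 (log2 fold change -0.26, SE 0.17, adjusted p = 0.61). Scd3, a further copy of the Scd genes, stayed at or below 0.05 FPKM and under the filter.

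The mitochondrial pathway of fatty acid synthesis, which is separate from Fasn, had 5 tested genes, of which 0 passed. Oxsm was 8.35 to 8.95 FPKM against 9.89 to 12.46, Mcat 14.97 to 18.30 against 18.45 to 19.43 and Ndufab1, the acyl carrier protein and most abundant of the list, 103.38 to 113.32 against 115.96 to 127.45. All 3, named because they were apart in FPKM (as 6.38% of all tested genes were in that direction), had log2 fold changes of -0.43, -0.23 and -0.22 and adjusted p-values of 0.221, 0.495 and 0.366.

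Of 15 tested genes of glycerolipid assembly beside Gpam, Dgat1 and Dgat2, 0 passed and the median log2 fold change was -0.11. In FPKM 4 of them were lower and 2 higher with no overlap, against 6.38% and 14% of all tested genes. Gpd1, which makes the glycerol-3-phosphate used by Gpam, was 77.08, 94.82 and 84.08 FPKM in the Ptpn6+/mev libraries and 189.82, 290.37 and 135.49 in the wild-type libraries. Its log2 fold change was -1.35 (SE 0.27, adjusted p = 0.104), it was -0.97 without wild-type replicate 2 and it passed in 5 of 17 alternatives. These were edgeR's exact test, the DESeq2 Wald test, the fits without wild-type replicates 2 and 3, which called 0.508% to 2.99% of all tested genes, and the fit with the adipocyte term, chosen after the data were seen. Mogat1, which makes diacylglycerol from monoacylglycerol, was 51.10, 64.78 and 59.52 FPKM against 113.75, 119.34 and 73.68 (log2 fold change -0.82, SE 0.22, adjusted p = 0.193). Mogat1 passed in 2 of 17 alternatives, edgeR's exact test (adjusted p = 0.0248) and the DESeq2 Wald test (0.0226). With a library left out its adjusted p lay between 0.0623 and 0.557, and its log2 fold change was -0.55 without wild-type replicate 2. Lclat1, an acyltransferase of the lysophospholipid family, was 19.62 to 25.11 FPKM against 26.88 to 30.25 (log2 fold change -0.34, adjusted p = 0.207). Agpat3, the most abundant of the list at 170.85 to 206.96 FPKM, overlapped between the groups.

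**Figure D5:**
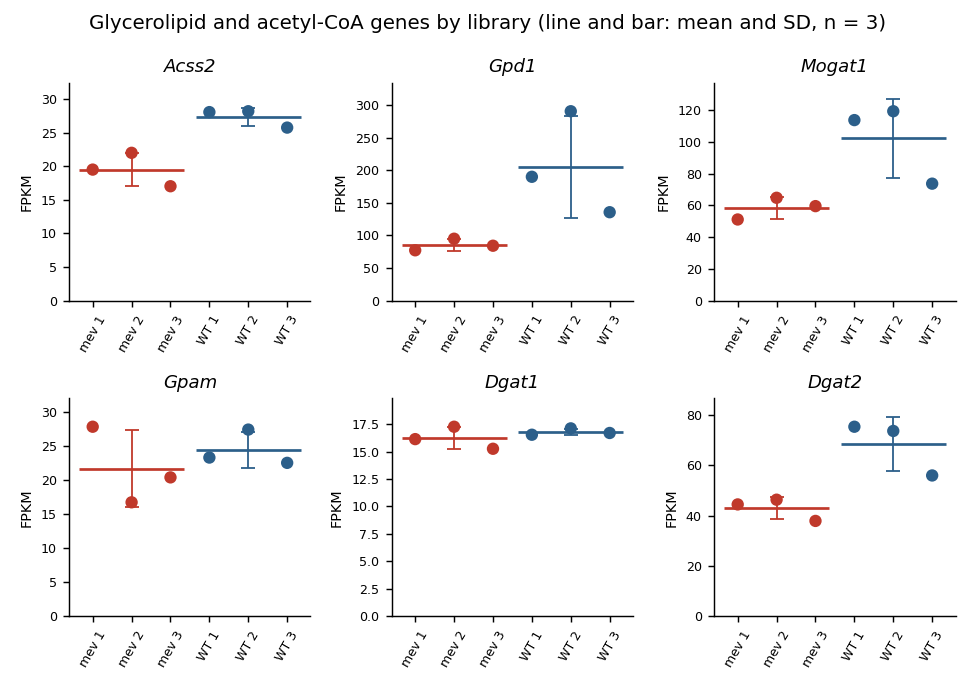
FPKM (vertical axes, from 0) of Acss2, Gpd1, Mogat1, Gpam, Dgat1 and Dgat2 in the Ptpn6+/mev (red) and wild-type (blue) libraries, with the group mean as a line and the SD as a bar. Acss2, Gpd1, Mogat1 and Dgat2 are apart between the groups, none of them with an adjusted p under 0.05, and Gpam and Dgat1 overlap.

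Over the 6 libraries, the genes whose log2 CPM values were most like the mean of the 10 standardised genes were Pigo (Pearson r = 0.992), Dnajb12 (0.992) and Abcb6 (0.983). These correlations are a description, since they are the 3 highest of all genes outside the 10, and the 6 points share their libraries. The mean of the standardised genes was highest in wild-type replicate 1 (0.45) and lowest in Ptpn6+/mev replicate 3 (-0.72).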

How the data were processed

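Kidney RNA of 6 mice was analysed, 3 per group. Per the study's methods, the authors aligned reads to GRCm38.p5 with TopHat and quantified them with Cufflinks; the submitters' processing notes also list Bowtie2, TopHat2 2.0.3.12 and RSEM without roles. The authors deposited estimated counts, whose counter is not given in the sources used here, and FPKM values (fragments scaled to transcript length and library size) for each library. Estimated counts, fractional for 1744 genes, were rounded. Genes passing filterByExpr were tested with the quasi-likelihood test of edgeR 4.0.16 (R 4.3.3, TMM normalisation, Benjamini-Hochberg adjustment over 13036 genes, threshold 0.05); FPKM served for levels. The procedure was tested on simulated data. Alternatives used limma 3.58.1, DESeq2 1.42.0, other scalings and filters, and omission of each library. All libraries differed beyond sampling noise and were counted separately. Replicates are separate mice.

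The 10 genes and the gene lists were chosen with earlier results of these data known. Named were all 10 genes; from each list any gene that passed, the 3 with the lowest p among those apart in FPKM and the most abundant; Srebf2, Mlxipl, Acacb, Scd3, Ptpn6 and Ppara; and the 3 genes most like the 10. The other white and brown adipocyte and proximal tubule markers were named after their values were seen. Promoter windows came from RefSeq tables of GRCm38.p6. Kidneys without injury were not analysed here. A marker gene that the rule would name, with its list, is not reported here.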

Additional observations from a re-analysis of the deposited data

How the results depend on the processing

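The number of genes called among all tested genes, 18, was 28 with library size only, 387 with the DESeq2 Wald test, 390 with edgeR's exact test, 52 with no filter on low counts and 57 with the adipocyte term chosen after the data were seen. It was 4, 11 and 1 when Ptpn6+/mev replicate 1, 2 or 3 was left out and 10, 237 and 67 when wild-type replicate 1, 2 or 3 was. Of the 10 genes, the Wald test and the exact test each called 1, and leaving out a library gave 0 to 2 (2 without wild-type replicate 2, 1 without wild-type replicate 3). Other genes of the pathway, 0 called, numbered 3 in both of these tests, 1 with the adipocyte term and 0 to 2 with a library left out (2 and 1 for the same libraries). The median log2 fold change of the 10 genes was -0.055 with the adipocyte term and ranged from -0.19 to -0.042 with a library left out, the last without Ptpn6+/mev replicate 3. The replicate numbers did not pair the mice (correlations of deviations -0.144, -0.184 and -0.13), and a replicate block left 1 gene called in all, no gene of the 10 and a Dgat2 log2 fold change of -0.74.

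Over 17 alternatives, Fasn, Acly, Gpam, Dgat1 and Dgat2 kept their direction, and 8 of the 10 genes were called in none, the exceptions being Dgat2 and Acly. With a library left out, Fasn ranged from -0.42 to -0.093 and Acly from -0.45 to -0.12 (lowest without wild-type replicate 2 and highest without wild-type replicate 3 for both), Gpam from -0.47 to -0.096 (Ptpn6+/mev replicates 1 and 2 left out, in that order), Dgat1 from -0.17 to -0.076 and Dgat2 from -0.89 to -0.66. Acaca reversed on FPKM (0.24 and 0.28), and ranged from -0.20 to 0.046 with a library left out, reversing without Ptpn6+/mev replicate 3 (0.034) and wild-type replicate 3 (0.046). Scd1 was 0.37 with the adipocyte term, whose division coincides with that of the Scd1 values and so says nothing about them, and ranged from -0.93 to 0.068 with a library left out, reversing without Ptpn6+/mev replicate 3 (0.03) and wild-type replicate 3 (0.068). With a library left out, Srebf1 ranged from -0.059 to 0.17, Scd2 from -0.075 to 0.067, Elovl6 from -0.14 to 0.28, Nr1h2 from -0.0056 to 0.058, Srebf2 from -0.25 to -0.11, Mlxipl from -0.41 to -0.11, Acacb from -0.44 to -0.16 and Thrsp from 0.55 to 1.06. The cause was not tested. With 3 mice a group, the 95% interval of Scd1 spans 0.338-fold to 2.06-fold.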
